A study of Mus musculus and Rattus norvegicus with 85 samples.

Results

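The genes described here mark the cells that line blood and lymphatic vessels, the cell type from which vascular tumours such as haemangiosarcoma grow. There were 10 of them, namely Pecam1, Cdh5, Kdr, Flt1, Tek, Tie1, Cd93, Angpt2, Vwf and Lyve1. They were followed through every probe set that the array annotation assigned to these symbols and to no other symbol. In the mouse all 10 genes were measured by 20 probe sets, of 34945 probe sets with 1 symbol for 18193 genes. In the rat 9 genes were measured by 14 probe sets, of 20826 probe sets for 14217 genes, and rat Cdh5 was not analysed here.

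The lungs came from adult female B6C3F1/Crl mice and adult female rats whose strain the labels spell F334/NCrl, 10 weeks old when whole-body inhalation of chloroprene in air began. Chloroprene is the monomer of polychloroprene rubber and is known as a multi-organ carcinogen in rodents, with vascular tumours among those of B6C3F1 mice. Exposure lasted 6 hours a day on 5 days a week, and the right lung lobes were taken after 5 or 15 exposure days. After 5 days the mouse groups had inhaled 0, 0.3, 2, 13 and 90 ppm, and after 15 days 0.3, 2, 13 and 90 ppm. The rat groups had inhaled 5, 30, 90 and 200 ppm at both times. Each of the 17 groups had 5 animals with 1 array each, 85 arrays in all. Air-exposed mice at 15 days and air-exposed rats were not analysed here, so the 0.3 ppm mice and the 5 ppm rats, which had also inhaled chloroprene, served as the reference in those comparisons. Within a species and time, every concentration was compared with the same 5 reference animals.

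Endothelial cells read growth signals through receptor tyrosine kinases. Vegfa and its relatives bind Kdr, the main signalling receptor for endothelial growth and survival, and Flt1, which holds the ligand tightly and signals weakly. Angiopoietins act on Tek, also called TIE2, with Tie1 as its partner receptor: Angpt1 activates Tek and stabilises vessels, while Angpt2, released by endothelial cells, mostly opposes it and loosens vessels. Lung is rich in capillaries, so these transcripts are abundant in whole-lung RNA. Because whole lung was measured, fewer endothelial cells and less RNA per endothelial cell cannot be told apart.

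The tissue label was checked against alveolar and airway epithelial markers, whose mean log2 signal over 9 genes ran from 13.52 to 13.79 over the mouse arrays and from 13.14 to 13.37 over the rat arrays. A probe set was tested where its log2 signal exceeded the 40th percentile of the species table, a log2 signal of 6.67 for mouse and 6.65 for rat lung, reached on 5 arrays or more. Of the endothelial probe sets, 18 mouse and 12 rat ones passed, each above that level on all 45 mouse or all 40 rat arrays. Those that did not pass were Angpt2 1459636_at (mean 5.44) and Cd93 1441908_x_at (6.05) in the mouse, and Kdr 1397868_at (6.18) and Cd93 1387168_at (6.08) in the rat, and they are not described further. A few arrays correlated less with their own group than the rest, 3 of the mouse (mouse 165 at 90 ppm after 5 days, and mice 177 and 179 at 90 ppm after 15 days) and 4 of the rat (rats 217 and 222 at 5 ppm and rat 239 at 30 ppm after 5 days, and rat 277 at 200 ppm after 15 days). They thus lie mostly in groups that enter the comparisons at the highest concentration. Among the 5-day rats the RNA integrity number, a measure of intact RNA on a scale to 10, ran from 7.1 to 8.7 at 200 ppm (known for 4 of 5 rats), from 9.2 to 9.3 at 90 ppm and from 7.3 to 8.5 at 5 ppm. For 9 of the 15-day mice, among them 3 of 5 at 90 ppm and 3 of 5 at 0.3 ppm, the labels give a duration that conflicts with the sample title, and the title was used here. The sample titles of rats 239, 269 and 282 have another form than those of the other rats. None of these 3 rats was in a 5 ppm group. The labels do not say what the form means, and no fit left out all 3.

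At the highest concentration only some endothelial genes moved, and they moved in both directions. In mice after 5 days, 4 of 18 probe sets for 3 genes passed at 90 against 0 ppm: Kdr and Angpt2 fell and both Lyve1 probe sets rose (limma, adjusted p under 0.05 over all probe sets). Of all 24434 mouse probe sets tested, 13.4% passed in that comparison, 6.94% higher and 6.45% lower. After 15 days 3 of 18 passed at 90 against 0.3 ppm, Angpt2 lower and both Lyve1 probe sets higher, where 6.07% of all probe sets passed, 3.66% higher and 2.41% lower. In rats after 5 days, 6 of 12 probe sets for 4 genes passed at 200 against 5 ppm, with Lyve1, Flt1 and Tek higher and Cd93 lower, against 33.0% of all 15109 probe sets, 7.49% higher and 25.5% lower. After 15 days 2 of 12 passed at 200 against 5 ppm, Cd93 and Angpt2, both lower, against 2.48% of all probe sets passing and 0.761% passing as lower. The median change over the endothelial probe sets was -0.05 on the log2 scale in the 5-day mice, 0.08 in the 15-day mice, 0.25 in the 5-day rats and -0.08 in the 15-day rats. With 1 probe set a gene, the brightest tested, the endothelial medians were -0.14, -0.13, 0.07 and -0.08 in the same order. The sign for the 15-day mice thus depended on that choice. Over all probe sets the medians were 0.00, 0.00, -0.10 and 0.01.

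**Figure D1:**
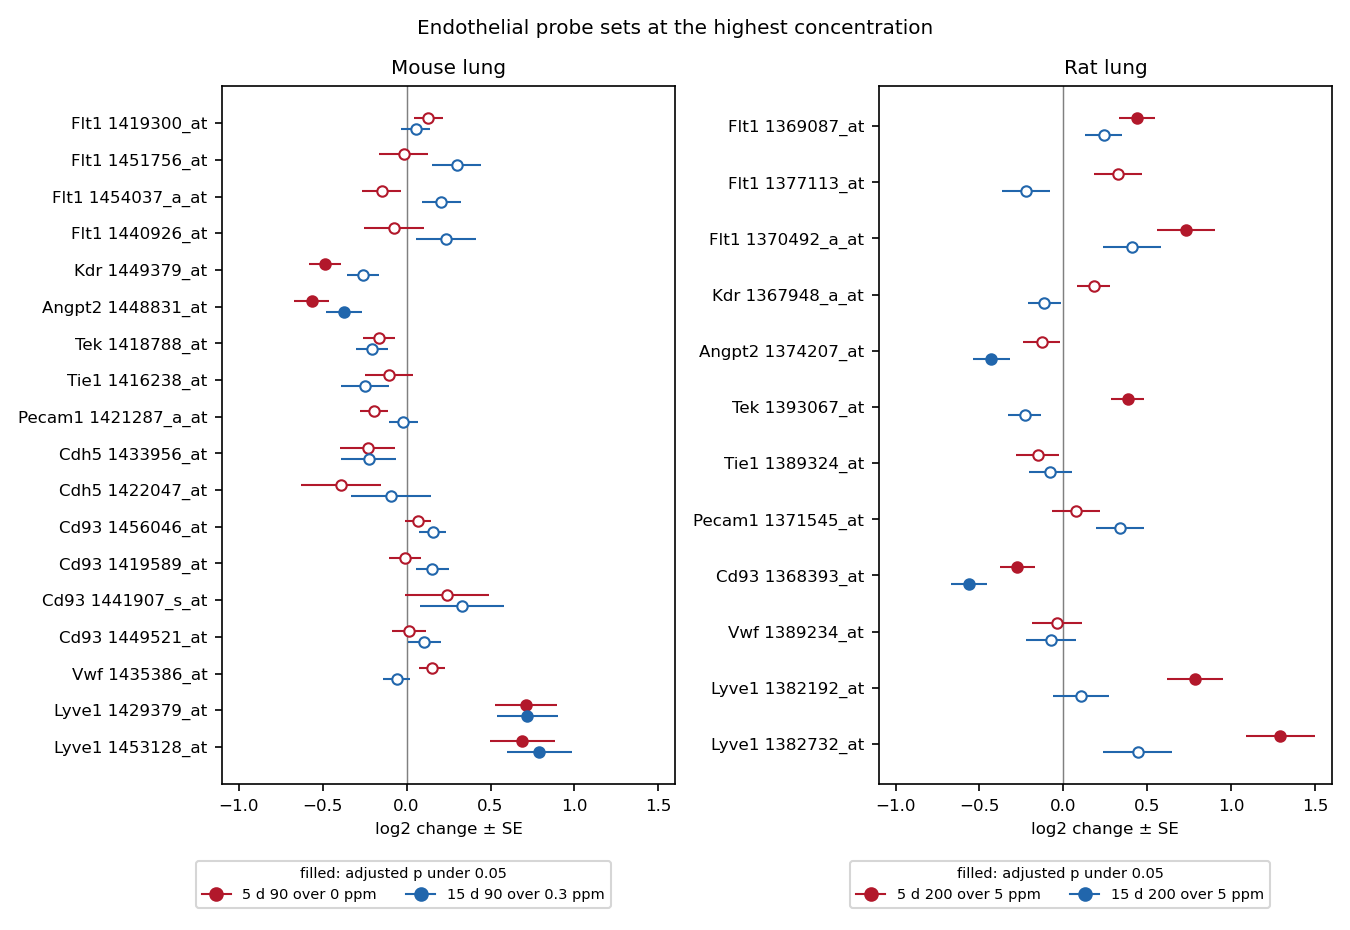
The horizontal axis gives the log2 change with its standard error at the highest concentration over the reference for every endothelial probe set tested, mouse lung on the left and rat lung on the right, with 5-day comparisons in red and 15-day comparisons in blue; filled points passed an adjusted p under 0.05. The Lyve1 points lie farthest to the right in both species at 5 days (0.71 and 0.69 in mice, 0.79 and 1.29 in rats), and mouse Kdr (-0.49) and Angpt2 (-0.57) lie to the left.

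At lower concentrations few endothelial probe sets passed. In 5-day mice none of 18 passed at 13, 2 or 0.3 ppm against 0 ppm (limma), while 0.872%, 0.716% and 0% of all probe sets passed. At an unadjusted p under 0.05 there were 4, 4 and 0 of the 18, and 2539, 2944 and 853 of all 24434. In 15-day mice none passed at 13 or 2 ppm against 0.3 ppm (limma), where 0.262% and 0.0737% of all probe sets did. Unadjusted p was under 0.05 for 1 and 0 of the 18, and for 1288 and 852 of all 24434. In 5-day rats 5 of 12 passed at 90 against 5 ppm, 4 higher and 1 lower, where 22.2% of all probe sets did, 6.29% higher and 15.9% lower. None of these 5 passed without rat 217 of the 5 ppm group or with the RNA integrity number as covariate. In the same rats none passed at 30 against 5 ppm (limma), where 0.00662% of all probe sets did. Unadjusted p was under 0.05 for 3 of the 12, and for 1862 of all 15109. In 15-day rats none passed at 90 or 30 against 5 ppm (limma), where 0.874% and 2.87% of all probe sets did. Unadjusted p was under 0.05 for 2 and 5 of the 12, and for 2295 and 4134 of all 15109. The test over all concentrations at once passed for Kdr (adjusted p = 0.0036) and Angpt2 (0.0019) in 5-day mice, where 8.57% of all probe sets passed. In 15-day mice it passed for Angpt2 (adjusted p = 0.004) and both Lyve1 probe sets (0.0053 and 0.0038), with 6.11% of all probe sets. In 5-day rats 5 of 12 passed it, for Flt1, Tek and Lyve1, with 19.1% of all probe sets, and in 15-day rats Cd93 alone (adjusted p = 0.015), with 1.50%.

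Kdr, the receptor that carries most VEGF signalling in endothelium, fell in mice after 5 days. Its log2 signal was 11.16, 11.33, 11.39, 11.28 and 11.26 in the 5 mice at 90 ppm, against 11.74, 11.75, 11.77, 11.72 and 11.87 in the 5 mice at 0 ppm. All 5 exposed mice lay below every air-exposed mouse. Kdr averaged 11.28 ± 0.09 at 90 ppm and 11.77 ± 0.06 at 0 ppm (SD, n = 5 each), a change of -0.49 ± 0.10 (SE) or 0.713-fold (limma, adjusted p = 3.5e-04). Across the 5-day mouse groups the means of Kdr were 11.77 at 0 ppm, 11.62 at 0.3 ppm, 11.49 at 2 ppm, 11.43 at 13 ppm and 11.28 at 90 ppm. Neighbouring concentrations overlapped, and the changes against 0 ppm were -0.15 (adjusted p = 1) at 0.3 ppm, -0.29 (0.15) at 2 ppm and -0.35 (0.071) at 13 ppm. The change at 13 ppm passed without mouse 149, the highest of its group (-0.42, adjusted p = 0.013).

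After 15 days mouse Kdr was 11.16, 11.52, 11.36, 11.28 and 11.41 at 90 ppm, against 11.74, 11.88, 11.49, 11.44 and 11.49 at 0.3 ppm. The groups overlapped, since the mouse at 11.52 lay above 3 of the 0.3 ppm mice. The change of -0.26 ± 0.10 did not pass (adjusted p = 0.1), and the difference between the 15-day and 5-day changes against 0.3 ppm was 0.07 ± 0.14 (adjusted p = 0.86). At 2 and 13 ppm the 15-day means of Kdr were 11.67 and 11.61, beside 11.61 at 0.3 ppm. In rats Kdr lay between 11.77 and 12.57 on all 40 arrays and passed in no comparison without a covariate. Its change at 200 against 5 ppm was 0.18 (adjusted p = 0.14) after 5 days, or 0.26 (0.049) with the difference between 3' and 5' control probe sets of Gapdh as a covariate, and -0.12 (0.52) after 15 days. In the 15-day group at 200 ppm, rat 282 was at 11.77 and the others from 12.38 to 12.42.

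Flt1, the tight-binding VEGF receptor, was read by 4 mouse and 3 rat probe sets that did not move alike. None of the mouse probe sets passed at 90 ppm: the changes against 0 ppm after 5 days were 0.13 for 1419300_at (adjusted p = 0.39), -0.02 for 1451756_at (0.97), -0.15 for 1454037_a_at (0.48) and -0.08 for 1440926_at (0.86). After 15 days they were 0.05, 0.30, 0.21 and 0.24 against 0.3 ppm in the same order, with adjusted p from 0.28 to 0.85. In 5-day rats Flt1 rose on 2 of its 3 probe sets. Probe set 1370492_a_at was 7.38, 7.89, 7.92, 7.75 and 8.31 at 200 ppm, against 6.73, 7.39, 6.85, 7.03 and 7.60 at 5 ppm, so that 4 of 5 exposed rats lay above every 5 ppm rat. The change was 0.73 ± 0.17 (SE, 1.66-fold, limma adjusted p = 0.0034) at 200 ppm and 0.55 ± 0.17 (1.46-fold, adjusted p = 0.03) at 90 ppm. With the Gapdh difference as a covariate the 200 ppm change was 0.37 (adjusted p = 0.046).

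Probe set 1369087_at of rat Flt1 was 8.36, 8.26, 8.52, 8.43 and 8.71 at 200 ppm, against 7.87, 8.00, 7.91, 8.03 and 8.28 at 5 ppm. Here too 4 of 5 exposed rats lay above the 5 ppm group, a change of 0.44 ± 0.11 (1.35-fold, limma adjusted p = 0.0045). With the Gapdh difference as a covariate it was 0.23 (adjusted p = 0.057). The remaining rat probe set, 1377113_at, changed by 0.33 ± 0.14 (adjusted p = 0.072) and did not pass, but with that covariate it passed at 200 ppm (0.56, adjusted p = 0.0039) and at 90 ppm (0.36, 0.027). After 15 days the rat Flt1 changes at 200 against 5 ppm were 0.24, 0.41 and -0.23 for 1369087_at, 1370492_a_at and 1377113_at, with adjusted p of 0.21, 0.18 and 0.38.

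Promoter sequence was at hand for 4 of the 10 genes (Kdr, Flt1, Tek and Tie1) in the RefSeq table of the mouse build GRCm38.p6, as 250 bases before and 50 bases after the gene's start. The Kdr promoter is shown because Kdr fell in the 5-day mice, and that of Flt1 because it encodes the other Vegfa receptor among the 10 genes. They lie on the minus strand at chr5:75978406-75978705 for Kdr and chr5:147725962-147726261 for Flt1, and are written 5' to 3' along the gene. Capitals mark GGAA or its reverse complement TTCC, the core that ETS transcription factors bind, a family central to endothelial gene expression.
Kdr: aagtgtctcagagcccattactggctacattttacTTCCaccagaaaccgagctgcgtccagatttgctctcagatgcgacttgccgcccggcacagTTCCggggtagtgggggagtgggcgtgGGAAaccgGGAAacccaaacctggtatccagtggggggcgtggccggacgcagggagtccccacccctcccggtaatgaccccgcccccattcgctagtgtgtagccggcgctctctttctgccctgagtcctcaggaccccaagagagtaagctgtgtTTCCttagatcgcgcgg
Flt1: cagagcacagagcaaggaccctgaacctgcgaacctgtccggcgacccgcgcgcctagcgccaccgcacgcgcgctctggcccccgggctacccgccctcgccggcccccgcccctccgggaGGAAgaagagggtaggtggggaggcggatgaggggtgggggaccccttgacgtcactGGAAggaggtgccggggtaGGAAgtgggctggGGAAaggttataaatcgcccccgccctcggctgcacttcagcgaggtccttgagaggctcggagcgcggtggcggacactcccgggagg
The core matched 5 times in Kdr, 4 times in Flt1, 2 times in Tek and 9 times in Tie1. So short a motif is common: 96.0% of 32851 mouse promoters of this length held at least 1 match on either strand, with a median of 3. The hypoxia-response core ACGTG or CACGT had no match in these 4 windows and at least 1 in 19.6% of all promoters. GC content was 60.7% in Kdr, 70.7% in Flt1, 52.0% in Tek and 60.3% in Tie1.

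Angpt2, the angiopoietin that opposes Tek activation, fell in mice at both times and in rats at the later time. After 5 days its mouse log2 signal was 8.27, 8.33, 8.26, 8.26 and 8.43 at 90 ppm, against 8.92, 8.77, 8.89, 8.93 and 8.86 at 0 ppm. Every mouse at 90 ppm lay below every mouse at 0 ppm. Angpt2 averaged 8.31 ± 0.07 at 90 ppm and 8.87 ± 0.07 at 0 ppm (SD, n = 5 each), a change of -0.57 ± 0.11 (SE) or 0.676-fold (limma, adjusted p = 2.0e-04). The 5-day means of Angpt2 were 8.87 at 0 ppm, 8.76 at 0.3 ppm, 8.67 at 2 ppm, 8.54 at 13 ppm and 8.31 at 90 ppm. Only the change at 90 ppm passed; at 13 ppm all 5 mice lay below the 0 ppm mice but the change was -0.34 (adjusted p = 0.14).

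After 15 days mouse Angpt2 was 8.33, 8.37, 8.29, 8.04 and 8.49 at 90 ppm, against 8.97, 8.83, 8.58, 8.67 and 8.33 at 0.3 ppm. The groups overlapped, with 3 of 5 mice at 90 ppm below every 0.3 ppm mouse. The change was -0.37 ± 0.11 (0.773-fold, limma adjusted p = 0.026), and it missed the threshold without mice 125, 126, 179 or 180 in turn (-0.37 to -0.30, adjusted p from 0.05 to 0.13). It also missed it without the mice of conflicting duration (-0.46, adjusted p = 0.22), which left 2 mice a group. The same held without the mice with a letter after the animal number (-0.44, 0.053) and without the arrays that stood apart (-0.38, 0.073). At 2 and 13 ppm after 15 days the means of Angpt2 were 8.81 and 8.75, above the 8.68 at 0.3 ppm by less than the spread.

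Rat Angpt2 after 15 days was 8.42, 8.00, 7.96, 7.95 and 7.57 at 200 ppm, against 8.30, 8.35, 8.40, 8.76 and 8.24 at 5 ppm. All but 1 of the 200 ppm rats lay below the 5 ppm rats. The change was -0.43 ± 0.11 (0.743-fold, limma adjusted p = 0.029), and it missed the threshold without rats 225, 227, 228, 280 or 282 in turn (-0.46 to -0.33, adjusted p from 0.055 to 0.1). It also missed the threshold with the RNA integrity number (adjusted p = 0.073) or the Gapdh difference (0.48) as a covariate. After 5 days rat Angpt2 changed by -0.13 at 200 ppm (adjusted p = 0.34).

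Tek, the angiopoietin receptor, rose in 5-day rats. It was 12.24, 12.33, 12.23, 12.29 and 12.45 at 200 ppm, against 11.66, 11.93, 11.99, 12.03 and 11.99 at 5 ppm, with no overlap. Tek averaged 12.31 ± 0.09 at 200 ppm and 11.92 ± 0.15 at 5 ppm (SD, n = 5 each), a change of 0.38 ± 0.10 (SE, 1.31-fold, limma adjusted p = 0.0055). At 90 ppm the change was 0.29 (adjusted p = 0.038) and at 30 ppm 0.26 (0.33). After 15 days rat Tek was 11.80, 11.99, 12.13, 12.20 and 11.54 at 200 ppm, against 12.02, 12.11, 12.25, 12.20 and 12.24 at 5 ppm, a change of -0.23 (adjusted p = 0.18). The change at 15 days minus that at 5 days was -0.61 ± 0.14 (limma, adjusted p = 0.036), the only endothelial probe set of 12 to pass this test, where 7.20% of all probe sets did, 1.56% lower. It missed the threshold with the RNA integrity number as covariate (-0.58, adjusted p = 0.11), without the arrays that stood apart (-0.52, adjusted p = 0.069), and when any of rats 217, 219, 221, 225, 227, 229, 266, 269, 277 or 282 was left out.

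In mice Tek did not pass at 90 ppm, with -0.17 after 5 days (adjusted p = 0.29) and -0.21 after 15 days (0.24). The 15-day value was -0.30 without mouse 179 (adjusted p = 0.046) and -0.45 without the mice of conflicting duration (adjusted p = 0.047). Tie1, the partner receptor of Tek, passed at no concentration in either species. Its changes at the highest concentration were -0.11 and -0.25 in 5-day and 15-day mice (adjusted p = 0.72 and 0.4) and -0.15 and -0.08 in 5-day and 15-day rats (adjusted p = 0.34 and 0.76).

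Of the genes of cell contact and haemostasis, none passed at the highest concentration in either species. Pecam1, the CD31 adhesion molecule at endothelial junctions, averaged 12.44 ± 0.16 in 5-day mice at 90 ppm and 12.63 ± 0.18 at 0 ppm (SD, n = 5 each), a change of -0.19 ± 0.09 (adjusted p = 0.14). After 15 days its mouse change was -0.02 (adjusted p = 0.95). In 15-day rats Pecam1 was 10.49, 10.58, 10.44, 10.51 and 10.42 at 90 ppm, against 9.59, 10.30, 10.15, 10.24 and 9.91 at 5 ppm. All 5 rats at 90 ppm lay above the 5 ppm rats, yet the change of 0.45 ± 0.14 did not pass (adjusted p = 0.13); it passed with the 15-day arrays alone (adjusted p = 0.046) and without the arrays that stood apart (0.0075). At 200 ppm the 15-day change of rat Pecam1 was 0.34 (adjusted p = 0.18), and at 5 days 0.07 (0.7).

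Cdh5, which encodes VE-cadherin, the adhesion protein of endothelial junctions, was read by a bright and a dimmer mouse probe set. At 90 against 0 ppm after 5 days, 1433956_at changed by -0.23 ± 0.16 (adjusted p = 0.41) and 1422047_at by -0.39 ± 0.24 (0.33). The 95% confidence intervals of these log2 changes ran from -0.56 to 0.10 and from -0.87 to 0.09, so a fall of the size seen for Kdr was within both. After 15 days the changes were -0.23 and -0.09. Vwf, the clotting glycoprotein stored in endothelial cells and platelets, was 13.34, 13.01, 13.05, 13.05 and 13.19 in 5-day mice at 90 ppm, against 12.98, 12.96, 13.00, 12.97 and 12.97 at 0 ppm. All 5 exposed mice lay above the narrow 0 ppm group, but the change of 0.15 ± 0.08 did not pass (adjusted p = 0.23). Vwf changed by -0.06 in 15-day mice and by -0.04 and -0.07 in 5-day and 15-day rats (adjusted p = 0.8, 0.86 and 0.81).

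Cd93, a C-type lectin-like receptor of endothelial and myeloid cells, fell in rats. After 15 days it was 10.09, 10.10, 10.02, 10.05 and 9.83 at 200 ppm, against 10.31, 10.51, 10.71, 10.68 and 10.67 at 5 ppm, with no overlap. Cd93 averaged 10.01 ± 0.11 at 200 ppm and 10.58 ± 0.17 at 5 ppm (SD, n = 5 each), a change of -0.56 ± 0.11 (SE, 0.677-fold, limma adjusted p = 0.0031). The 15-day means of rat Cd93 were 10.58 at 5 ppm, 10.25 at 30 ppm, 10.21 at 90 ppm and 10.01 at 200 ppm, and the changes at 30 and 90 ppm were -0.33 (adjusted p = 0.075) and -0.37 (0.083). With the Gapdh difference as a covariate the 200 ppm change was -0.60 (adjusted p = 0.074). After 5 days rat Cd93 changed by -0.27 ± 0.11 at 200 ppm (0.827-fold, adjusted p = 0.046) and by -0.34 ± 0.11 at 90 ppm (0.791-fold, adjusted p = 0.03), and the change at 200 ppm missed the threshold without rats 217, 219, 220, 221, 265, 266, 267 or 268 in turn (-0.32 to -0.20). The change at 90 ppm missed it without rats 217, 219, 221, 251, 252 or 253 in turn (-0.38 to -0.24), and both missed it with the 5-day arrays alone (adjusted p = 0.1 and 0.06).

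In mice none of the 4 tested Cd93 probe sets passed at 90 ppm. Their changes were 0.07, -0.01, 0.24 and 0.01 after 5 days and 0.16, 0.15, 0.33 and 0.11 after 15 days for 1456046_at, 1419589_at, 1441907_s_at and 1449521_at, with adjusted p from 0.31 to 0.97. Probe set 1441907_s_at passed in 5-day mice only in the fit with the RNA integrity number as covariate (0.94, adjusted p = 0.018), which had 2 of the 5 air-exposed mice.

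Lyve1, the hyaluronan receptor of lymphatic endothelium that is also made by a class of tissue macrophages, had the largest changes of the 10 genes at 5 days in both species and at 15 days in mice. In 5-day mice 1429379_at was 12.34, 13.09, 13.42, 13.04 and 12.83 at 90 ppm, against 12.22, 12.36, 12.15, 12.41 and 12.01 at 0 ppm. In the same animals 1453128_at was 11.71, 12.20, 12.69, 12.31 and 12.03 at 90 ppm, against 11.38, 11.55, 11.59, 11.58 and 11.39 at 0 ppm. On 1429379_at 4 of 5 and on 1453128_at all 5 exposed mice lay above every air-exposed mouse. The changes were 0.71 ± 0.18 (1.64-fold, limma adjusted p = 0.006) and 0.69 ± 0.19 (1.61-fold, adjusted p = 0.012). Against the 0.3 ppm mice in place of the air-exposed mice they were 0.44 (adjusted p = 0.14) and 0.46 (0.15). With the RNA integrity number as covariate they were 0.60 (0.21) and 0.56 (0.29), in a fit that had 2 of the 5 air-exposed mice. Without mouse 167 the change of 1453128_at was 0.56 (adjusted p = 0.052). The 5-day means of 1429379_at were 12.23 at 0 ppm, 12.51 at 0.3 ppm, 12.49 at 2 ppm, 12.43 at 13 ppm and 12.94 at 90 ppm. On 1453128_at they were 11.50, 11.73, 11.62, 11.59 and 12.19. The air-exposed group was the lowest on both. The 5-day test over all concentrations did not pass (moderated F test, adjusted p = 0.076 and 0.083).

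After 15 days mouse Lyve1 on 1429379_at was 12.82, 13.05, 13.30, 13.16 and 12.89 at 90 ppm, against 12.41, 11.89, 12.06, 12.45 and 12.81 at 0.3 ppm. On 1453128_at it was 11.96, 12.57, 12.49, 12.30 and 12.45 at 90 ppm, against 11.50, 11.30, 11.44, 11.59 and 11.99 at 0.3 ppm. All 5 exposed mice lay above the 0.3 ppm group on 1429379_at and 4 of 5 on 1453128_at. The changes were 0.72 ± 0.18 (1.65-fold, limma adjusted p = 0.011) and 0.79 ± 0.19 (1.73-fold, adjusted p = 0.0079). They were smaller without the mice of conflicting duration, which left 2 mice a group, 0.38 (adjusted p = 0.65) and 0.39 (0.69), and without the mice with a letter after the animal number, 0.54 (0.29) and 0.56 (0.31). Without mouse 126 the change of 1429379_at was 0.61 (adjusted p = 0.057). At 2 and 13 ppm the 15-day Lyve1 changes lay between -0.08 and -0.04 on the log2 scale.

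**Figure D2:**
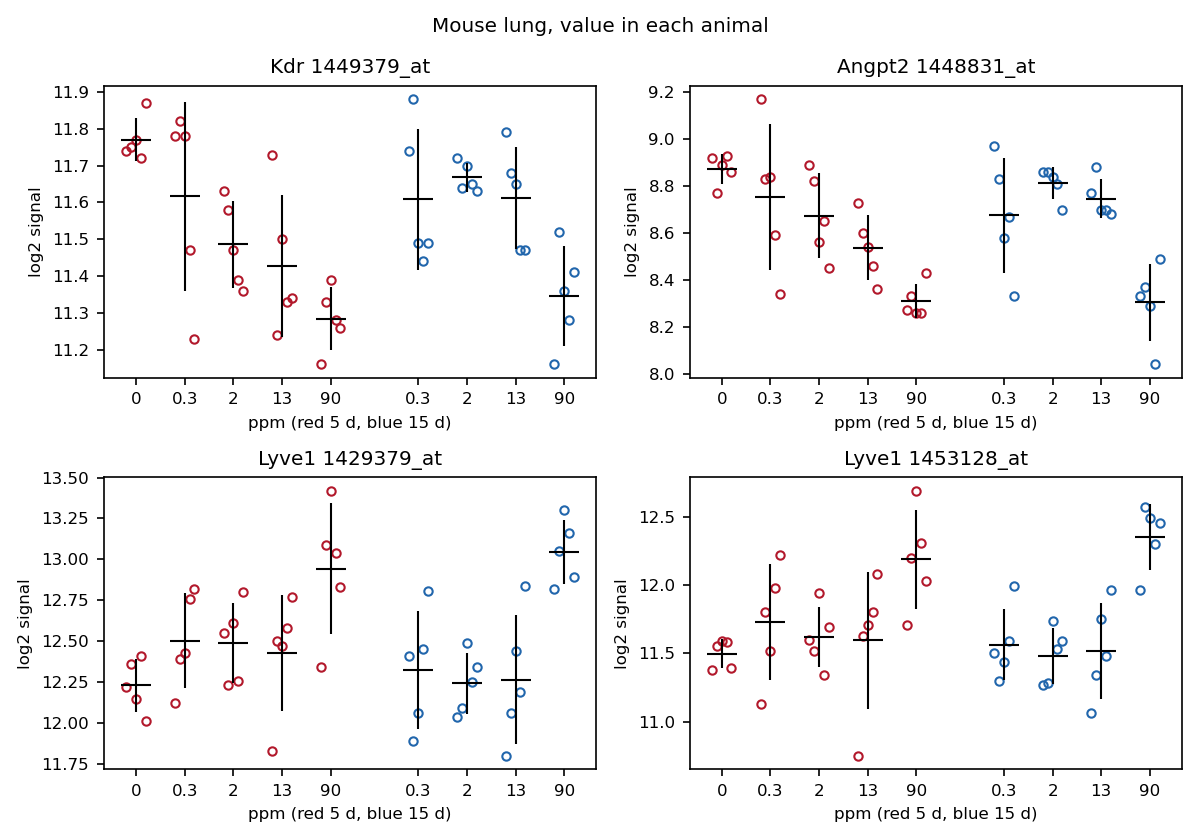
Each circle is the log2 signal of 1 mouse (vertical axis) by inhaled concentration in ppm (horizontal axis), 5-day mice in red and 15-day mice in blue, with black bars for the mean and SD of 5 mice. The 5-day Kdr and Angpt2 values at 90 ppm lie below all values at 0 ppm, and both Lyve1 probe sets are high at 90 ppm at both times, with group means from 12.19 to 13.04.

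Lyve1 also rose in 5-day rats. Probe set 1382732_at was 11.06, 11.42, 11.39, 11.28 and 11.94 at 200 ppm, against 9.51, 10.08, 10.12, 10.16 and 10.77 at 5 ppm. Probe set 1382192_at was 11.94, 12.17, 12.06, 12.18 and 12.45 at 200 ppm, against 10.95, 11.26, 11.48, 11.59 and 11.59 at 5 ppm. On both, all 5 rats at 200 ppm lay above every rat at 5 ppm. The changes were 1.29 ± 0.21 (2.45-fold, limma adjusted p = 2.2e-04) and 0.79 ± 0.17 (1.72-fold, adjusted p = 0.0015). At 90 ppm they were 0.93 (adjusted p = 0.0066) and 0.54 (0.029), and at 30 ppm 0.42 (0.4) and 0.44 (0.33). The 5-day means of 1382732_at were 10.13 at 5 ppm, 10.55 at 30 ppm, 11.06 at 90 ppm and 11.42 at 200 ppm, with overlap between neighbouring concentrations.

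After 15 days Lyve1 did not pass in rats. The changes at 200 against 5 ppm were 0.44 ± 0.21 for 1382732_at (adjusted p = 0.22) and 0.10 ± 0.17 for 1382192_at (0.75). Rat 277, one of the arrays that stood apart, was at 9.88 and 10.84, while the other 200 ppm rats lay from 10.91 to 11.16 and from 11.68 to 11.98. Without the arrays that stood apart the change of 1382732_at was 0.67 (adjusted p = 0.0098). The 15-day change minus the 5-day change was -0.85 (adjusted p = 0.057) and -0.68 (0.058) for these probe sets, which did not pass.

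Other genes of lymphatic endothelium and of macrophages were read beside Lyve1, each on its brightest tested probe set. Of all mouse genes read so, 15.4% passed after 5 days at 90 against 0 ppm, 8.55% higher and 6.88% lower. After 15 days at 90 against 0.3 ppm 7.16% passed, 4.32% higher and 2.84% lower. In 5-day mice none of 4 other lymphatic genes tested passed, and their mean log2 signal ran from 9.58 to 9.83 at 90 ppm and from 9.48 to 9.79 at 0 ppm. Of 8 macrophage genes 1 passed: Cd163, a scavenger receptor of tissue macrophages, averaged 7.37 ± 0.64 at 90 ppm and 6.35 ± 0.43 at 0 ppm (SD, n = 5 each). The mean at 0 ppm lay below the level used to choose probe sets for testing, so the size of this change is not given. In 15-day mice Cd163 rose by 0.93 ± 0.23 (adjusted p = 0.0092), to 7.66 ± 0.34 at 90 ppm, against 6.73 ± 0.34 at 0.3 ppm, and Csf1r, the receptor for macrophage colony-stimulating factor, fell by 0.27 (adjusted p = 0.037). The mean over the 8 macrophage genes ran from 9.34 to 9.62 at 90 ppm and from 9.15 to 9.41 at 0 ppm after 5 days.

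In 5-day rats 2 of 5 lymphatic genes passed, both higher: Mmrn1, a multimerin of lymphatic and other endothelium (1.42 ± 0.43, adjusted p = 0.014), and Reln, which encodes reelin (0.38 ± 0.12, adjusted p = 0.015). Of all rat genes on their brightest tested probe set, 34.9% passed after 5 days at 200 against 5 ppm, 4.37% higher and 30.5% lower. The mean over the 5 lymphatic genes ran from 8.99 to 9.20 at 200 ppm and from 8.73 to 8.88 at 5 ppm, without overlap. Of 6 rat macrophage genes 2 fell, Csf1r (-0.47, adjusted p = 9.9e-04) and Cd68 (-0.47, adjusted p = 0.014), and F13a1 passed as higher with its 5 ppm mean below the level used for testing (6.89 at 200 ppm and 6.56 at 5 ppm). The list means ran from 8.75 to 8.97 at 200 ppm and from 8.91 to 9.08 at 5 ppm. The part of either cell type in the Lyve1 result was not tested.

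**Figure D3:**
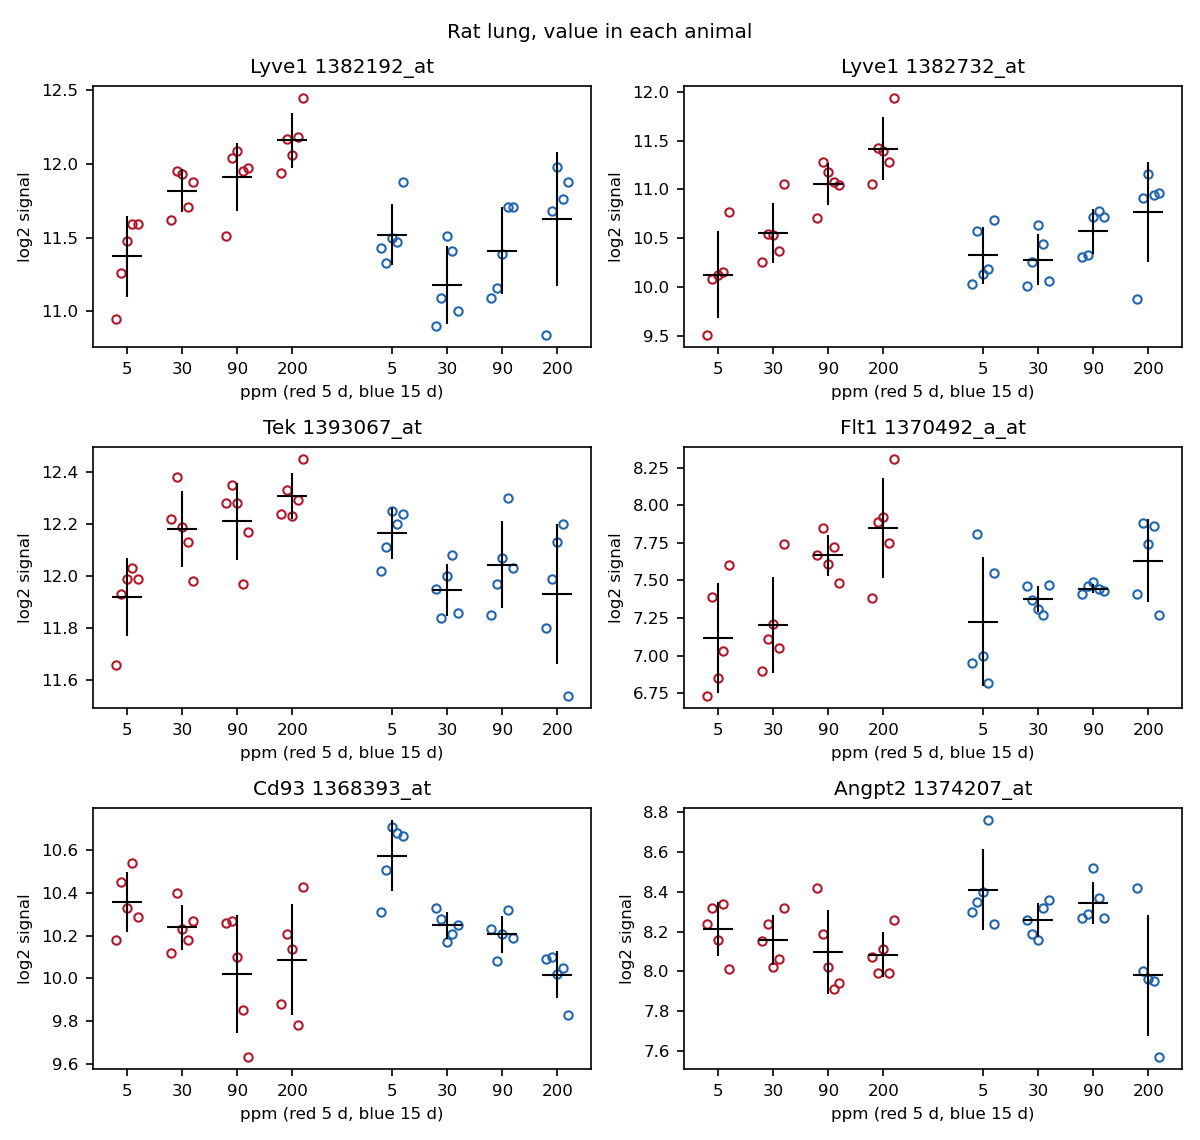
Each circle is the log2 signal of 1 rat (vertical axis) by inhaled concentration in ppm (horizontal axis), 5-day rats in red and 15-day rats in blue, with black bars for the mean and SD of 5 rats. Lyve1, Tek and Flt1 are high at 200 ppm after 5 days, and Cd93 at 200 ppm after 15 days (9.83 to 10.10) lies below every 5 ppm rat (10.31 to 10.71).

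The signal also differed between the exposure times when concentrations were averaged. Time and any difference in the handling of the 5-day and 15-day animals cannot be told apart. In rats 4 of 12 endothelial probe sets passed for 15 against 5 days, where 36.4% of all probe sets did, 21.9% higher and 14.5% lower. Pecam1 was higher (0.26 ± 0.07, limma adjusted p = 0.0094), while Lyve1 was lower on both probe sets (-0.38, adjusted p = 0.0026, and -0.30, 0.026) and Tek was lower (-0.13, 0.036). At 5 ppm alone the means of these 4 probe sets went the other way. From 5 to 15 days Pecam1 went from 10.10 to 10.04 and Tek from 11.92 to 12.16. Lyve1 went from 11.37 to 11.52 on 1382192_at and from 10.13 to 10.33 on 1382732_at. These differences at 5 ppm were not tested. The Tek call was lost with the RNA integrity number (adjusted p = 0.08) or the Gapdh difference (0.055) as covariate and in 15 of 40 fits that left out 1 rat. In mice 4 of 18 passed, against 24.8% of all probe sets, 11.4% higher and 13.3% lower, and the probe sets of a gene disagreed. Flt1 changed by -0.19 on 1419300_at (adjusted p = 0.0017) and by 0.26 on 1454037_a_at (0.0012), and Cd93 by -0.18 on 1456046_at (0.0011) and by 0.36 on 1441907_s_at (0.033). None of these 4 mouse probe sets passed with the RNA integrity number as covariate. The test of whether the 90 ppm change differed between times passed for none of the 18 mouse probe sets (limma), where 0.0327% of all probe sets passed. Unadjusted p was under 0.05 for 0 of the 18, and for 1437 of all 24434.

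In the groups and marker lists that follow, genes outside the 10 were each read on their brightest tested probe set. Of all 13796 mouse genes read so, 15.4% passed in 5-day mice at 90 against 0 ppm, 8.55% higher and 6.88% lower, and 7.16% in 15-day mice at 90 against 0.3 ppm, 4.32% higher and 2.84% lower. Of 11010 rat genes, 34.9% passed in 5-day rats at 200 against 5 ppm, 4.37% higher and 30.5% lower, and 1.63% in 15-day rats, 0.799% higher and 0.827% lower. Among other genes of VEGF signalling, 1 rose and 3 fell of 8 tested in 5-day mice. Nrp2, a co-receptor for VEGF and semaphorin, fell by 0.60 (adjusted p = 1.7e-06), Nrp1, its relative, by 0.37 (0.048) and Vegfa, the main ligand of Kdr, by 0.29 (0.0044). Vegfd, a ligand known for lymphatic growth, rose by 0.65 ± 0.18 (adjusted p = 0.011). Vegfa averaged 12.64 ± 0.12 at 90 ppm and 12.93 ± 0.05 at 0 ppm (SD, n = 5 each), and all 5 exposed mice were below the air-exposed ones. Vegfc and Pgf, other VEGF family ligands, changed by 0.11 and 0.08 and did not pass. After 15 days Nrp2 again fell, by 0.32 (adjusted p = 0.012), and Vegfd rose by 0.60 (0.036), while Vegfa changed by -0.14 (0.32). In rats 1 of 7 passed after 5 days, Vegfb, which binds Flt1, at -0.41 (adjusted p = 0.0037), and none after 15 days (limma). The rat change of Vegfa was 0.06 after 5 days (adjusted p = 0.58).

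Of 3 other angiopoietin pathway genes tested in 5-day rats, 2 rose at 200 against 5 ppm: Foxo1, a transcription factor that Tek signalling restrains (0.92 ± 0.20, adjusted p = 0.0016), and Ptprb, the phosphatase VE-PTP that acts on Tek (0.68 ± 0.23, 0.023). The remaining gene, the activating ligand Angpt1, also passed as higher but was dim, with means of 6.67 ± 0.43 at 200 ppm and 5.52 ± 0.66 at 5 ppm (SD, n = 5 each). Its 5 ppm mean lay below the level used to choose probe sets for testing, so no size is given. The mean over the 3 genes ran from 9.31 to 9.92 at 200 ppm and from 8.16 to 9.41 at 5 ppm, with overlap. None of these 3 passed in 15-day rats (limma), and none of 5 passed in mice at either time (limma).

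Of 19 endothelial surface and junction genes in 5-day mice, 1 rose and 5 fell. Among those that fell was Emcn, endomucin (-0.57 ± 0.09, adjusted p = 1.1e-05), and in 15-day mice, where 1 rose and 3 fell, Icam2 (-0.34 ± 0.07, adjusted p = 0.0015). In 5-day rats 5 of 18 rose and none fell, with the largest change in Bmpr2, the BMP type II receptor (1.99 ± 0.34, adjusted p = 3.2e-04), and a rise in Jam2, a junction adhesion molecule (0.71 ± 0.17, 0.0037). None of the 18 passed in 15-day rats (limma). The median change of the list was -0.09 in 5-day mice, -0.11 in 15-day mice, 0.08 in 5-day rats and 0.01 in 15-day rats.

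Of 13 endothelial transcription factors in 5-day mice, 3 rose and 1 fell. Gata2 rose (0.49 ± 0.10, adjusted p = 5.6e-04), as did Sox18 (0.53 ± 0.13, 0.0032), which takes part in lymphatic and vascular development, and Ets1, a factor of the family whose core is marked above, fell (-0.64 ± 0.13, 3.3e-04). In 15-day mice 1 of 13 passed, Gata2 (0.34, adjusted p = 0.029). In 5-day rats 2 of 13 rose, among them Erg, an ETS factor that maintains endothelial identity (0.94 ± 0.20, adjusted p = 0.0016). Its mouse change after 5 days was -0.47 (adjusted p = 0.06).

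Of 8 genes of endothelial activation and coagulation, 1 rose and 2 fell in 5-day mice and 3 fell in 15-day mice. Plat, tissue plasminogen activator, rose after 5 days (0.60 ± 0.11, adjusted p = 1.0e-04). Vcam1, the adhesion molecule for leukocytes, fell at both times (-0.64, adjusted p = 6.6e-04, and -0.50, 0.015), and Icam1 (-0.30, 0.0074) and Selp, P-selectin (-0.52, 0.0075), fell after 15 days. In 5-day rats Icam1 fell as well (-0.35 ± 0.06, adjusted p = 5.4e-04), alone of the 8.

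Of 9 genes that mark lung capillary subtypes, 1 rose and 2 fell in 5-day mice and 2 fell in 15-day mice. Apln, apelin, known from the larger aerocyte capillaries, fell by 0.60 (adjusted p = 7.2e-04) after 5 and by 0.41 (0.038) after 15 days, and its receptor Aplnr, of general capillaries, fell by 0.69 (0.031) and by 0.76 (0.03). Cyp4b1, a P450 enzyme, rose by 0.23 (adjusted p = 6.9e-04). In 5-day rats 3 of 9 rose, among them Kit, the stem cell factor receptor (0.42 ± 0.15, adjusted p = 0.033).

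Of 10 tip cell and angiogenesis genes, 2 rose and 5 fell in 5-day mice, with a list median of -0.29, and 1 rose and 2 fell in 15-day mice, with a median of -0.31. Adm, adrenomedullin, rose by 0.76 ± 0.10 (adjusted p = 3.7e-07) and by 0.58 ± 0.10 (9.8e-05) at these times. Cxcr4, a chemokine receptor, fell by 0.85 ± 0.20 (adjusted p = 0.0027) in 5-day mice. In 5-day rats 1 rose and 1 fell of 9, beside Angpt1. Esm1, endocan, was singled out after its values were seen: it fell by 0.94 ± 0.24 (adjusted p = 0.005) in 5-day mice and rose by 0.80 ± 0.22 (0.0091) in 5-day rats, a difference between species that was not tested. Of 12 genes of arteries, veins and Notch signalling, 3 rose and 2 fell in 5-day mice and 2 of each in 15-day mice. Jag1, a Notch ligand, rose in mice (0.32, adjusted p = 0.0043, and 0.27, 0.034) and fell in 5-day rats (-0.55, adjusted p = 0.0011), alone of the 11 rat genes tested. Efnb2, an arterial ephrin, fell in mice (-0.33, adjusted p = 0.0037, and -0.27, 0.037), as did the netrin receptor Unc5b (-0.36, 0.008, and -0.38, 0.011), and the kinase Bmx rose in 15-day mice (0.53, 0.026). None of these 3 groups held a gene that passed in 15-day rats (limma).

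**Figure D4:**
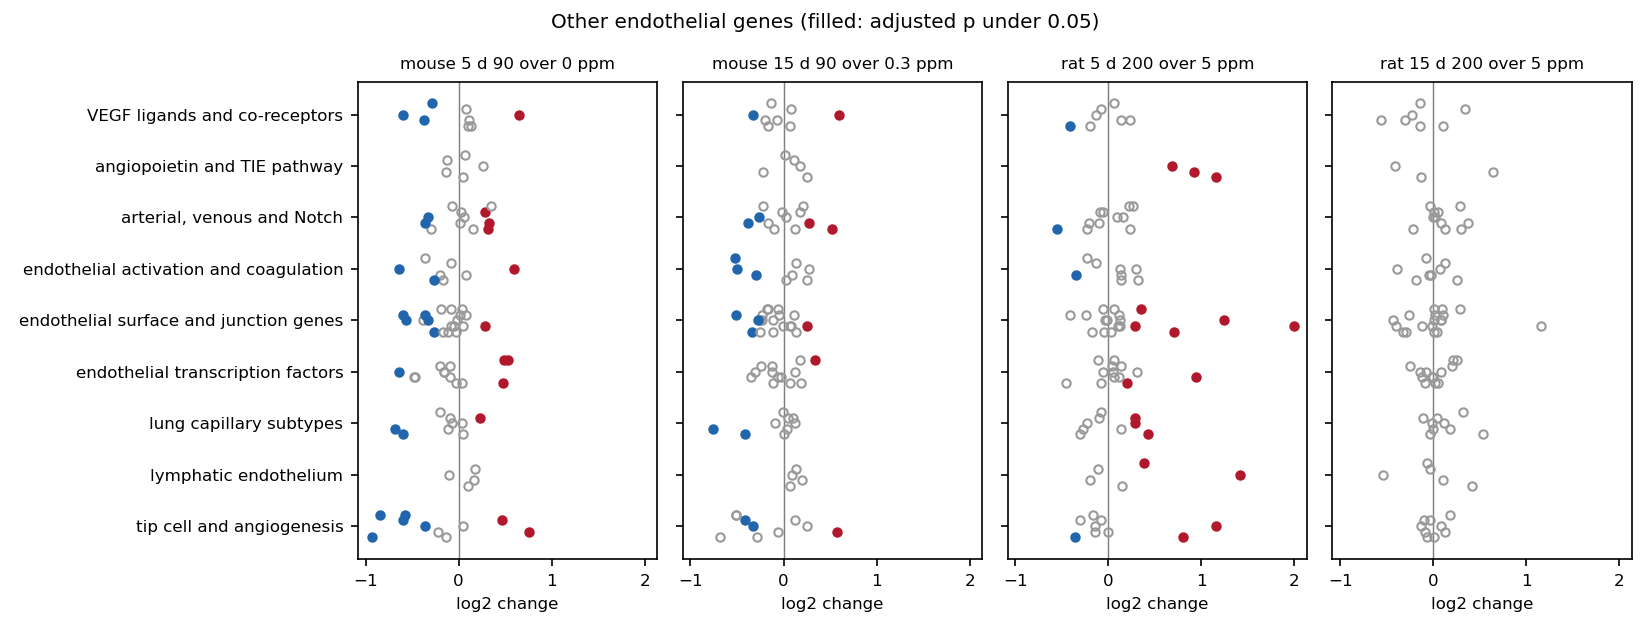
Each circle is 1 endothelial gene outside the 10, by its log2 change (horizontal axis) and its group (rows), in 4 panels for mouse 5 d 90 over 0 ppm, mouse 15 d 90 over 0.3 ppm, rat 5 d 200 over 5 ppm and rat 15 d 200 over 5 ppm; filled circles passed an adjusted p under 0.05, red higher and blue lower. Filled circles occur on both sides in mice, mostly on the right in 5-day rats, where surface and junction genes include Bmpr2 at 1.99, and nowhere in 15-day rats.

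Markers of other cell types moved in the same comparisons. In 5-day mice 6 of 8 leukocyte genes fell, among them Cd79a of B cells (-1.28 ± 0.33, adjusted p = 0.0056), the pan-leukocyte Ptprc (-0.88 ± 0.22, 0.0041) and the integrin Itgal (-0.49, 0.029). Ms4a1 of B cells was among the 6 and averaged 6.64 at 90 ppm, below the level used for testing, and 8.38 at 0 ppm. Itgam, also among the 6, had a group mean below that level too. The list mean ran from 8.84 to 9.22 at 90 ppm and from 9.73 to 9.95 at 0 ppm, without overlap. Foxj1, of ciliated cells, rose by 0.93 (adjusted p = 0.002), and Aqp5 of alveolar type I cells and Sftpa1, a surfactant protein, fell by 0.29 (0.017) and by 0.12 (0.034). Col3a1, a fibroblast collagen, fell by 0.74 (adjusted p = 0.033), and Krt19, a keratin of mesothelium and epithelium, rose by 0.31 (0.0057), alone of 6 mesothelial genes. The T-cell gene Cd8b1 passed as lower, with means of 6.39 at 90 ppm, below the level used for testing, and 7.15 at 0 ppm. No gene of the platelet (8), pericyte and smooth muscle (9), heart muscle (7) or adipose (3) lists passed in 5-day mice (limma). In 15-day mice the leukocyte gene Itgal fell (-0.50, adjusted p = 0.045), alone of 8 with a list median of -0.56, and the list mean ran from 8.98 to 9.39 at 90 ppm and from 9.20 to 9.98 at 0.3 ppm. Aqp5 fell in those mice as well (-0.30, adjusted p = 0.024), alone of 9 epithelial genes.

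In 5-day rats all 5 mesothelial genes tested fell at 200 against 5 ppm, among them Lrrn4 (-1.15 ± 0.19, adjusted p = 2.6e-04), Upk1b (-1.21 ± 0.21, 3.6e-04), Wt1 (-1.26 ± 0.22, 3.8e-04) and Msln (-1.09 ± 0.20, 5.8e-04), with list means from 9.33 to 9.73 at 200 ppm and from 10.26 to 10.90 at 5 ppm. All 4 heart muscle genes passed as higher, each with a 5 ppm mean below the level used for testing, so no sizes are given. Myh6 averaged 8.21 at 200 ppm and 5.89 at 5 ppm, Myl7 8.19 and 5.73, Tnni3 7.81 and 6.64, and Sln 6.91 and 6.22 in these groups. Of 7 fibroblast genes 3 rose, Dcn (1.09 ± 0.20, adjusted p = 5.4e-04), Pdgfra (0.64 ± 0.12, 5.4e-04) and Lum (0.66, 0.04), and of 9 pericyte and smooth muscle genes 2 rose, Myh11 (0.76 ± 0.15, 9.8e-04) and Cnn1 (0.54, 0.048). Scgb1a1 of club cells rose by 0.14 (adjusted p = 0.0079), while Aqp5 (-0.37, 0.0019) and the platelet gene Pf4 (-0.39, 0.045) fell. Of 7 leukocyte genes 2 fell, among them Itgal (-0.56, limma adjusted p = 7.2e-04). The fat-cell gene Cidec passed as lower, with means of 6.02 at 200 ppm and 6.64 at 5 ppm, both below the level used for testing. In 15-day rats the pericyte gene Notch3 was the sole gene of these lists to pass, as higher, with a mean of 6.77 at 200 ppm and of 6.49, below the level used for testing, at 5 ppm. The part of these cell types, and of RNA quality, in the endothelial results was not tested.

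Within groups, endothelial genes varied together only in part. Over the 45 mouse arrays, the deviations of 10 genes from their group means gave 45 pairs with a median Pearson r of 0.22, of which 32 were positive. The highest was Tie1 with Cdh5 at 0.84, followed by Flt1 with Cd93 at 0.71 and Kdr with Angpt2 at 0.68. Lyve1 ran against some genes, at -0.58 with Vwf and -0.55 with Angpt2, and along with others, at 0.47 with Tek and 0.41 with Flt1. Over the 40 rat arrays, 36 pairs had a median of 0.34, with 27 positive. Tie1 with Vwf was at 0.86, Pecam1 with Vwf at 0.74, Kdr with Tek at 0.70 and Kdr with Angpt2 at 0.67. Rat Lyve1 was at -0.51 with Tie1 and at 0.45 with Tek. These values are descriptive, since genes on 1 array share its RNA quality and normalization.

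**Figure D5:**
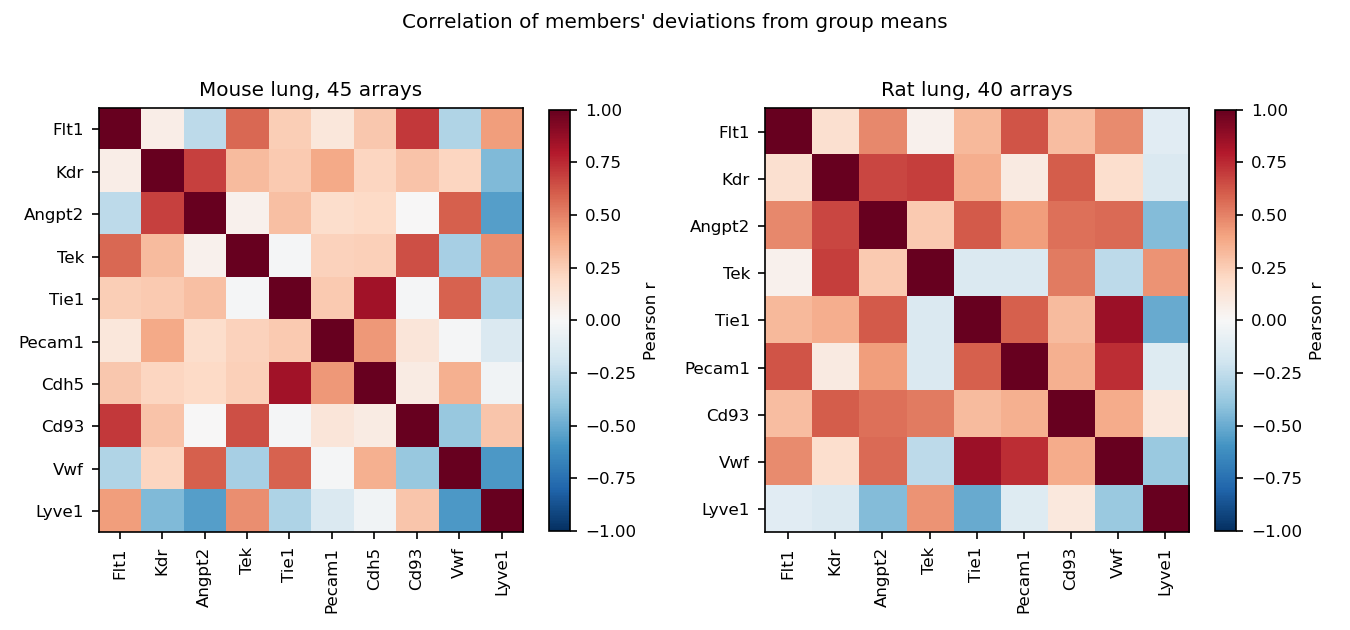
Each square is the Pearson correlation, on a scale from -1 (blue) to 1 (red), between the deviations of 2 endothelial genes from their group means, over 45 mouse arrays on the left and 40 rat arrays on the right. Tie1 and Cdh5 in the mouse (0.84) and Tie1 and Vwf in the rat (0.86) are the reddest pairs. Lyve1 is blue against Vwf in the mouse (-0.58) and Tie1 in the rat (-0.51), and red against Tek in both (0.47 and 0.45).

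The genes outside the 10 whose deviations followed the mean deviation of the members most closely were Lhfp (Pearson r = 0.83), Pdzd2 (0.82), Dgka (0.82), Asap2 (0.81) and Ehd4 (0.79) over 45 mouse arrays. Over 40 rat arrays they were Antxr2 (0.86), Spon1 (0.85), Fgd5 (0.85), Ecm1 (0.85) and She (0.84). Each of these genes was read on whichever of its tested probe sets gave the highest r, bright or not. They were picked as the highest among all tested probe sets of genes outside the 10, so their r values are the top of that search.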

How the data were processed

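Right-lung RNA was purified by Trizol and a column kit and hybridised after biotin labelling to Affymetrix whole-genome arrays of each species, per the labels. The log2 signals were used as deposited, made by the authors with a summarization and normalization that are not given in the sources used here. Probe sets with several symbols, none or control names were left out.

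Groups follow the sample titles. Each species was fitted with limma 3.58.1 in R 4.3.3, a mean per group over all its arrays, with two-sided moderated tests and Benjamini-Hochberg adjustment over all probe sets tested. A change is a difference of mean log2 signals, so a fold is relative, and levels of different probe sets were not compared. The threshold was an adjusted p of 0.05. Precision is set by how many arrays a group has; standard errors of log2 changes had a median of 0.10 for mouse and 0.11 for rat lung. The fit was tested on simulated data.

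The members and the gene lists were chosen with earlier results of these data known. From each list, each gene read on its brightest probe set, up to 4 genes were named by smallest p among those past the threshold at the highest concentration, with 5 ligands (Vegfa, Vegfc, Vegfd, Pgf and Angpt1) whatever their result. The 5 genes most like the members in each species were also named. The thymus and adipose lists had 3 or fewer genes tested per species. Alternatives were the filter, quantile normalization, 1 probe set a gene, another moderation, covariates for RNA integrity number (7 arrays without one left out) and for the 3' to 5' Gapdh difference, arrays of the same time, exclusion of mice of conflicting duration or with lettered numbers, 0.3 ppm as reference, each animal left out, and, chosen after seeing the data, exclusion of 7 arrays that stood apart.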

Additional observations from a re-analysis of the deposited data

Results flagged for a closer look

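In each group of 5 animals, the highest and the lowest value of each tested endothelial probe set were compared with the rest. Of 258 such groups, 20 (7.8%) had an animal far from the other 4, where chance gives about 1 in 20. The values are log2 signals.

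Flt1 held several in mice. On 1451756_at, mouse 105 (5 days, 0 ppm) was at 10.06, with the others from 9.48 to 9.62, and mouse 135 (5 days, 2 ppm) at 9.92, with the others from 9.24 to 9.43. On 1454037_a_at of Flt1, mouse 105 was again high at 9.34 (others 8.66 to 8.82), mouse 149 (5 days, 13 ppm) was low at 8.23 (8.55 to 8.65), mouse 142 (15 days, 2 ppm) low at 8.62 (8.81 to 8.88) and mouse 161 (15 days, 13 ppm) high at 9.11 (8.74 to 8.82). Without mouse 135, Flt1 1454037_a_at at 2 against 0 ppm after 5 days was -0.47 (adjusted p = 0.045), where with all mice it was -0.39 (0.095).

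Tie1 was low in mouse 143 (15 days, 2 ppm) at 10.88, with the others from 11.39 to 11.56. Cdh5 was low on 1433956_at in mouse 104 (5 days, 0 ppm) at 11.32 (11.67 to 11.81), and on 1422047_at in mouse 118 (5 days, 0.3 ppm) at 8.22 (8.73 to 8.93) and mouse 154 (5 days, 13 ppm) at 7.63 (8.45 to 8.64). Cd93 was low on 1456046_at in mouse 127 (15 days, 0.3 ppm) at 12.73 (13.02 to 13.09) and high on 1441907_s_at in mouse 168 (5 days, 90 ppm) at 9.42 (8.52 to 8.73). On 1449521_at Cd93 was low in mouse 179 (15 days, 90 ppm) at 7.87 (8.16 to 8.25) and in mouse 125 (15 days, 0.3 ppm) at 7.86 (8.04 to 8.09).

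In rats Kdr was low in rat 282 (15 days, 200 ppm) at 11.77, with the others from 12.38 to 12.42, and the same rat had the lowest Angpt2 (7.57), Tek (11.54) and Cd93 (9.83) of its group. Tek was low in rat 217 (5 days, 5 ppm) at 11.66 (others 11.93 to 12.03). Vwf was high in rat 239 (5 days, 30 ppm) at 13.00 (12.00 to 12.29), which also had the highest Pecam1 of its group (10.75). Rats 239 and 282, like rat 269, have sample titles of another form. Rat 269 (5 days, 200 ppm) had the highest Lyve1, Tek and Flt1 of its group on the probe sets that passed. Lyve1 was low on 1382192_at in rat 249 (5 days, 90 ppm) at 11.51 (11.95 to 12.09) and in rat 277 (15 days, 200 ppm) at 10.84 (11.68 to 11.98), and rat 277 was also low on 1382732_at at 9.88 (10.91 to 11.16).

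Rat Tek differed between times in its response to 200 against 5 ppm, by -0.61 on the log2 scale (limma, adjusted p = 0.036): its change was -0.23 after 15 days and 0.38 after 5 days. This call was lost with the RNA integrity number as covariate (adjusted p = 0.11), without the arrays that stood apart (0.069) and in 10 of 20 fits that left out 1 rat.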

How the results depend on the processing

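Of 29 endothelial results past the threshold, 9 stayed past it in every alternative that tested the probe set, and none of the 29 changed direction. Those 9 were Kdr and Angpt2 in 5-day mice at 90 ppm (-0.52 to -0.34 and -0.60 to -0.45), both Lyve1 probe sets, Tek and Flt1 1370492_a_at (0.37 to 0.85) in 5-day rats at 200 ppm, and Pecam1 and both Lyve1 probe sets for 15 against 5 days in rats. These rat time results are averages over concentrations, and their means went the other way at 5 ppm. Aside from fits that left out 1 rat, Tek in 5-day rats at 200 ppm was tested in 9 alternatives. In the same comparison Lyve1 1382732_at was tested in 8 and Flt1 1370492_a_at in 7. For 15 against 5 days rat Lyve1 was tested in 8 on 1382192_at and in 7 on 1382732_at. Of 229 results short of the threshold, 32 passed it somewhere. The cause of the shifts was not tested.

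The numbers of endothelial probe sets that passed moved as follows. With quantile normalization 1 passed in 5-day mice at 13 ppm (0 otherwise) and 8 for time in mice (4 otherwise). With 1 probe set a gene, by construction fewer, 2 passed for time in mice, 3 in 5-day rats at 90 ppm and 3 in the 5-day rat test over all concentrations (5 otherwise in both). With the RNA integrity number as covariate 0 passed for time in mice, 0 in 5-day rats at 90 ppm, 1 in 15-day rats at 200 ppm (2 otherwise) and 0 for time by dose in rats (1 otherwise). With the Gapdh difference as covariate 0 passed in 15-day rats at 200 ppm and 2 for rat time by dose. With arrays of the same time only, 1, 2 and 1 passed in 15-day rats at 200, 90 and 30 ppm. Without mice of conflicting duration 1 passed in 15-day mice at 90 ppm (3 otherwise) and 8 for time in mice; without lettered mice 1 passed in 5-day mice at 13 ppm, 0 in 15-day mice at 90 ppm and 7 for time. Against 0.3 ppm, 2 passed in 5-day mice at 90 ppm (4 otherwise). Without the arrays that stood apart, an alternative chosen after seeing the data, 4 passed the 5-day mouse test over all concentrations (2 otherwise), 2 and 3 in 15-day rats at 90 and 30 ppm, 0 for rat time by dose, 7 for time in rats (4 otherwise) and 5 the 15-day rat test over all concentrations (1 otherwise).

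Leaving out each of the 85 animals in turn gave 3 to 4 in 5-day mice at 90 ppm, 0 to 1 at 13 and at 2 ppm, 0 at 0.3 ppm, 1 to 3 in 15-day mice at 90 ppm, 0 at 13 and 2 ppm and for time by dose, and 3 to 7 for time. In rats it gave 5 to 6 at 200 ppm, 0 to 7 at 90 ppm and 0 to 1 at 30 ppm after 5 days, 1 to 3 at 200 ppm and 0 at 90 and 30 ppm after 15 days, 0 to 4 for time by dose and 3 to 6 for time. In 5-day rats at 90 ppm, 0 of the 5 passed without rat 217.

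Counts over all probe sets moved by more than 1.5 times in these settings. With the RNA integrity number they were 995 in 5-day mice at 90 ppm (3272 otherwise), 42 at 13 ppm (213), 3 at 2 ppm (175), 4 for mouse time by dose (8), 445 for mouse time (6050), 2999 in 5-day rats at 200 ppm (4983), 180 at 90 ppm (3354), 0 at 30 ppm (1), 91, 8 and 0 in 15-day rats at 200, 90 and 30 ppm (374, 132 and 434) and 0 for rat time by dose (1088). With the Gapdh difference they were 91 in 5-day mice at 2 ppm, 8733 and 7101 in 5-day rats at 200 and 90 ppm, 7 and 54 in 15-day rats at 200 and 30 ppm and 1662 for rat time by dose. Against 0.3 ppm they were 1912, 72 and 14 in 5-day mice at 90, 13 and 2 ppm. Without mice of conflicting duration they were 382 and 550 in 5-day mice at 13 and 2 ppm, 652 in 15-day mice at 90 ppm (1484), 5 at 2 ppm (18) and 1 for time by dose. Without lettered mice they were 385 in 5-day mice at 2 ppm, 652 and 4 in 15-day mice at 90 and 2 ppm and 2 for time by dose. Without the arrays that stood apart they were 4 for mouse time by dose, 111 in 5-day rats at 30 ppm, 829, 977 and 3681 in 15-day rats at 200, 90 and 30 ppm, 0 for rat time by dose, 8250 for rat time (5494) and 2300 in the 15-day rat test over all concentrations (226). With arrays of the same time they were 311 and 3 in 5-day mice at 2 and 0.3 ppm, 10 in 15-day mice at 2 ppm and 0 in 5-day rats at 30 ppm. Without a filter they were 823 in 15-day rats at 30 ppm and 628 for rat time by dose, and with the 60th percentile 191 in 15-day rats at 30 ppm, 143 in the 15-day rat test over all concentrations and 4 for mouse time by dose. With 1 probe set a gene, by construction fewer, they were 2946 for mouse time, 0 in 5-day rats at 30 ppm, 90, 34 and 183 in 15-day rats at 200, 90 and 30 ppm and 66 in the 15-day rat test over all concentrations. No paired analysis was possible because each animal has its own number and no number is shared between groups.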
